A study of Mus musculus with 20 samples.

Results

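T, Tbx6, Msgn1, Cdx1, Cdx2, Cdx4, Nkx1-2, Rspo3, Wnt3a and Wnt5a are genes of the posterior presomitic mesoderm, the unsegmented tissue at the tail end of the embryo from which somites are cut off. They were chosen by gene symbol. Each of the 10 had 1 row among the 55421 transcripts listed for each cell type, and each was followed in all 20 RNA libraries, 10 from induced presomitic mesoderm (iPSM) colonies and 10 from mouse embryonic stem cells (ESC). The series asks how CLOCK and BMAL1, which drive the circadian clock's daily transcription, bear on the segmentation clock, the oscillator that paces somite formation.

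The iPSM colonies were differentiated from E14TG2a ESC, and all of them, controls included, carried a luciferase reporter under the Hes7 promoter (pHes7-luc). The iPSM groups were tetO-Clock/Bmal1 clones 12 and 20 with doxycycline (dox, 1000 ng/mL for 2 hours) and untreated, tetO-Clock/Bmal1DN clones 7 and 19 with dox and untreated, and a control line with 1 dox and 1 untreated library. The ESC were of the line KY1.1. Their groups were tetO-Clock/Bmal1 clones 1 and 7 and tetO-Clock/Bmal1DN clones 5 and 6, each with dox (500 ng/mL for 6 hours) and untreated, and a control line with 1 dox and 1 untreated library. In tetO lines dox switches on the transgene, here Clock with Bmal1 or Clock with a dominant-negative Bmal1 (Bmal1DN). Replicates are the 2 clones of a group, each a separate line measured once per condition, so the tests measure the spread between clones. The control line has no replicate.

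In the vertebrate tailbud, Wnt and FGF signals from the posterior end hold cells in an immature state, and cells leave that state as the signals fade towards the anterior end. T (Brachyury) starts the mesodermal programme, Tbx6 and Msgn1 commit cells to presomitic mesoderm, and the Cdx factors carry posterior axial identity. Wnt3a feeds the canonical Wnt pathway that keeps T and Tbx6 on, Rspo3 amplifies that pathway at the receptor, and Wnt5a acts mainly without beta-catenin.

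Library totals were 38184055 to 47767592 counts in iPSM and 40315227 to 57299360 counts in ESC. Clock and Arntl (the gene symbol of Bmal1), whose counts include transgene reads, checked the labels: Clock was at 954 to 2249 CPM (counts scaled to a fixed library total) in the 4 dox-treated iPSM clones and at 92.4 to 105 CPM in the other 6 iPSM libraries. In ESC it was at 349 to 1646 CPM in the 4 dox-treated clones and at 30.7 to 62.9 CPM in the other 6. Arntl reached 2966 and 4283 CPM in the dox-treated iPSM Clock/Bmal1 clones but 828 and 143 CPM in the dox-treated iPSM Clock/Bmal1DN clones 7 and 19. Untreated, it was at 52.5 and 72.1 CPM in Clock/Bmal1 clones 12 and 20 and at 39.0 and 61.9 CPM in Clock/Bmal1DN clones 7 and 19. Arntl levels with dox in iPSM thus differed between genotypes and between clones. In dox-treated ESC Arntl was at 2414 and 4523 CPM in Clock/Bmal1 clones 1 and 7. It was at 1737 and 4466 CPM in dox-treated ESC Clock/Bmal1DN clones 5 and 6, so the genotypes overlapped there. The untreated iPSM control library stood apart, with reads over 69.4% of features against 50.2 to 54.0% in the other iPSM libraries. The summed level of 10 presomitic mesoderm markers, 4 of them among the genes described here, was 754 to 1205 CPM in iPSM and 44.9 to 163 CPM in ESC, and that of 9 pluripotency markers was 233 to 480 CPM in iPSM and 2093 to 3309 CPM in ESC. The iPSM label thus matched its markers. These are bulk samples, in which fewer cells of a type and less RNA per cell cannot be told apart.

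All 10 genes are on distinct stretches of the mm10 genome, and values are over whole gene bodies, exons and introns together. Of the T-box and bHLH factors, T (ENSMUST00000074667.8) lies at chr17:8434423-8442496 on the plus strand, Tbx6 (ENSMUST00000094037.4) at chr7:126781483-126785560 on the plus strand and Msgn1 (ENSMUST00000049877.2) at chr12:11208360-11208972 on the minus strand. Msgn1 has no intron in this annotation. The caudal-type homeobox genes are Cdx1 (ENSMUST00000025521.8, chr18:61018862-61036199, minus), Cdx2 (ENSMUST00000031650.3, chr5:147300805-147307270, minus) and Cdx4 (ENSMUST00000033689.2, chrX:103321398-103330592, plus). The NK1-type homeobox gene Nkx1-2 (ENSMUST00000054562.3) lies at chr7:132594878-132599637 on the minus strand. Of the secreted Wnt pathway proteins, Rspo3 (ENSMUST00000092623.4) lies at chr10:29452418-29535867 on the minus strand, Wnt3a (ENSMUST00000010044.7) at chr11:59248033-59290752 on the minus strand and Wnt5a (ENSMUST00000063465.11) at chr14:28504750-28527448 on the plus strand.

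Opposite-strand genes overlap Nkx1-2, Rspo3 and Wnt5a, and reads were counted by strand. Counting by strand does not part same-strand neighbours. The GENCODE annotation has a form of Fgfr2 on the same strand across Nkx1-2, although the transcript listed for Fgfr2 in the tables does not reach it, so Nkx1-2 values may hold Fgfr2 reads. The same-strand Gm20276 overlaps Rspo3 and held 1.89 to 9.75 CPM in iPSM, so its reads and those of Rspo3 may be split.

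Promoter sequences from RefSeq (GRCm38.p6, 250 bases before to 50 after the start site) were used for T, Tbx6, Msgn1, Cdx2, Cdx4, Nkx1-2 and Wnt3a. They were searched on both strands for CACGTG (the E-box bound by CLOCK and BMAL1), TCACACC (a T-box element), CTTTGAT (TCF/LEF, the nuclear end of the Wnt pathway) and CNATAAA (CDX). These letters occur in 7.15%, 3.98%, 3.73% and 10.9% of 32851 RefSeq promoters of the same length. The 4 promoters below are shown because each held a match, in capitals, and no match overlapped another. CACGTG was in the window of Nkx1-2, at -125 from the start site, and of no other gene of the 7. T held TTTATGG (the CDX letters read on the other strand) at -178 and Tbx6 held CTATAAA (the CDX letters) at -44. Msgn1 held ATCAAAG (the TCF/LEF letters on the other strand) at -203. Which proteins bind these letters was not tested. The windows are chr7:132599588-132599887 (minus) for Nkx1-2, chr17:8434173-8434472 (plus) for T, chr7:126781233-126781532 (plus) for Tbx6 and chr12:11208899-11209198 (minus) for Msgn1, whose RefSeq start lies 24 bases inside the listed transcript.
Nkx1-2: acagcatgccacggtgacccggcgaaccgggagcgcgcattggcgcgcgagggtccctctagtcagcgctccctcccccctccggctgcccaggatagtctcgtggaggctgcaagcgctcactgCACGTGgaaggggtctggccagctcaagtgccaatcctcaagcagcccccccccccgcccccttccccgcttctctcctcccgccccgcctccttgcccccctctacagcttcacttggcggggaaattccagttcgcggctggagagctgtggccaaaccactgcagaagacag
T: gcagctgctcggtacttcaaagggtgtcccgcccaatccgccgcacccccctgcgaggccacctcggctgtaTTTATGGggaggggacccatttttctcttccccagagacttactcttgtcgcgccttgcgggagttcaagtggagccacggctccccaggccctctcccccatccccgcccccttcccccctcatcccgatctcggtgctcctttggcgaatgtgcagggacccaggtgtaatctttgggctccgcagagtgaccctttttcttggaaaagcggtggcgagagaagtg
Tbx6: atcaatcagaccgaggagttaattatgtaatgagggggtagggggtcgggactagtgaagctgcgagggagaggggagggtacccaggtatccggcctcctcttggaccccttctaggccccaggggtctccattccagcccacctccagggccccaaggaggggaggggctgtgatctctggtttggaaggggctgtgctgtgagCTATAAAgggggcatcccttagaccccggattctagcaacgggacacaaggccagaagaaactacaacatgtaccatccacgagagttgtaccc
Msgn1: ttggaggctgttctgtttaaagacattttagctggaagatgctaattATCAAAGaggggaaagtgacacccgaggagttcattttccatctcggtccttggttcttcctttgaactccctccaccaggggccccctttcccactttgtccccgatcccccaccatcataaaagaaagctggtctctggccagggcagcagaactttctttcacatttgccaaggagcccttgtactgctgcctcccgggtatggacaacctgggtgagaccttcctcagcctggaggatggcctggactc

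Between cell types, 9 of the 10 genes were higher in untreated iPSM than in untreated ESC and Wnt5a was lower. The comparison takes the 4 untreated transgene clones of each cell type. In it 60.0% of 26689 genes passed at an adjusted p under 0.05 in edgeR (31.3% higher and 28.8% lower in iPSM), so passing alone sets the 10 genes little apart. Their median log2 fold change was 6.12, against 0.05 over all genes. Cell type, parent line and culture differ together and cannot be told apart, and library totals in place of TMM factors would shift every value of this contrast by 0.21 on the log2 scale.

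Msgn1, a bHLH factor that drives presomitic fate, was the nearest to absent in ESC. Its counts over the 4 untreated clones were 8357 in iPSM and 5 in ESC, a library-scaled ratio of 1906 (95% counting interval 816 to 5871), and all 10 ESC libraries together held 7 counts. It had 0 counts in 6 ESC libraries, where a floor of 3 counts stands for 0.0532 to 0.0744 CPM. Tbx6, the T-box factor downstream of T and Wnt3a, averaged 45.1 ± 16.8 CPM in iPSM and 0.286 ± 0.109 CPM in ESC (SD, n = 4 clones each; log2 fold change 7.26 ± 0.454 SE, adjusted p = 5.86e-09). T itself was readily measured in ESC, at 16.8 ± 15.4 CPM, against 529 ± 45.3 CPM in iPSM (log2 fold change 5.23 ± 0.415, adjusted p = 6.21e-08).

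Nkx1-2, a marker of the progenitors that give both spinal cord and mesoderm, averaged 157 ± 24 CPM in iPSM and 1.69 ± 1.97 CPM in ESC (6.94 ± 0.49, adjusted p = 1.93e-08). Among the Cdx genes the log2 fold change was 6.73 ± 0.201 for Cdx1, 6.00 ± 0.296 for Cdx4 and 4.98 ± 0.464 for Cdx2 (adjusted p of 3.01e-07 or less). Cdx2, which also specifies trophectoderm in the early embryo, had the highest ESC level of the 3, 3.87 ± 3.16 CPM. Rspo3 was higher by 6.24 ± 0.403 and Wnt3a by 5.30 ± 0.264 (adjusted p of 8.1e-09 or less).

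Wnt5a went the other way, with 7.26 ± 3.06 CPM in iPSM and 24.1 ± 17.6 CPM in ESC (-1.77 ± 0.518, adjusted p = 0.00802). Its untreated ESC values were 9.14 and 28.6 CPM in Clock/Bmal1 clones 1 and 7, 11.7 and 47.1 CPM in Clock/Bmal1DN clones 5 and 6, and 6.69 CPM in the control line, and its untreated iPSM values were 3.00 to 16.4 CPM. The 2 high ESC values were in clones 7 and 6, whose untreated libraries also had the highest summed level of fibroblast feeder markers. The summed level of 8 feeder markers was 225 to 455 CPM in the libraries of ESC Clock/Bmal1 clone 7 and in untreated Clock/Bmal1DN clone 6, 51.0 to 105 CPM in the other 7 ESC libraries and 16.0 to 27.3 CPM in iPSM, with no marker at 0 throughout a cell type. The summed level of 8 neural markers was 70.0 to 109 CPM in the same 3 libraries and 44.6 to 63.5 CPM in the other 7 ESC libraries. The part of feeder RNA or of other cell types in the Wnt5a difference, or in the ESC levels of the other genes, was not tested. The Wnt5a call ended on leaving out untreated ESC clone 7 (-1.25, adjusted p = 0.0524) or untreated ESC clone 6 (-1.1, adjusted p = 0.0689), and with the untreated control libraries added (-0.75, adjusted p = 0.186).

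**Figure D1:**
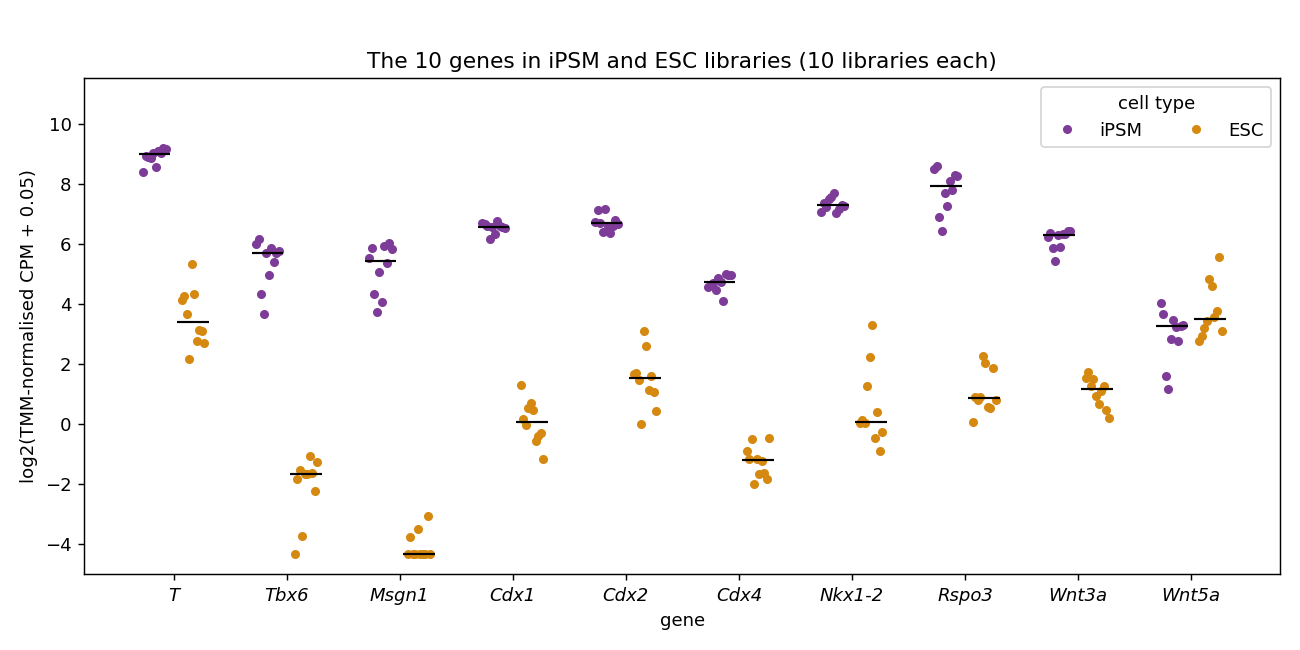
Level of each gene in the 10 iPSM (left, purple) and 10 ESC libraries (right, orange), as log2 of TMM-normalised CPM plus 0.05. Each point is a library and each line a median; the cell types do not overlap for 9 genes, while Wnt5a spans 2.20 to 16.4 CPM in iPSM and 6.69 to 47.1 CPM in ESC.

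Within iPSM the genes were ordered by the deposited RPKM, the authors' read counts scaled by library total and by kilobase of gene body. Gene bodies ran from 612 bases for Msgn1 to 83449 bases for Rspo3 and include introns, so the order is not one of messenger copies. Over the 10 iPSM libraries the median was 78.6 RPKM for Msgn1 (23.0 to 110), 63.7 for T (47.4 to 75.4), 34.3 for Nkx1-2 (29.3 to 45.8) and 16.8 for Cdx2 (13.4 to 21.8). It was 12.8 RPKM for Tbx6 (3.35 to 17.9), 5.69 for Cdx1 (4.4 to 6.93), 3.15 for Rspo3 (1.1 to 4.96) and 3.05 for Cdx4 (1.98 to 3.72). Wnt3a and Wnt5a came last, with 1.94 RPKM (1.08 to 2.12) and 0.439 RPKM (0.104 to 0.834). Neighbours in this order did not overlap for T over Nkx1-2, Nkx1-2 over Cdx2 and Wnt3a over Wnt5a, and all other neighbours overlapped.

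The genes differed more in how much they varied between iPSM libraries than their order shows. The highest library was 7.48 times the lowest for Wnt5a, 5.63 for Tbx6, 4.90 for Msgn1 and 4.45 for Rspo3, but 2.01 for Wnt3a, 1.87 for Cdx4, 1.76 for T, 1.74 for Cdx2, 1.58 for Nkx1-2 and 1.54 for Cdx1. Dox-treated Clock/Bmal1 clone 12 was the lowest iPSM library for Tbx6, Msgn1, Cdx1, Rspo3, Wnt3a and Wnt5a. Without that library the ratio was 3.55 for Tbx6, 3.88 for Msgn1, 3.23 for Rspo3 and 5.49 for Wnt5a. The narrow group thus held T, the 3 Cdx genes, Nkx1-2 and the ligand Wnt3a.

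**Figure D2:**
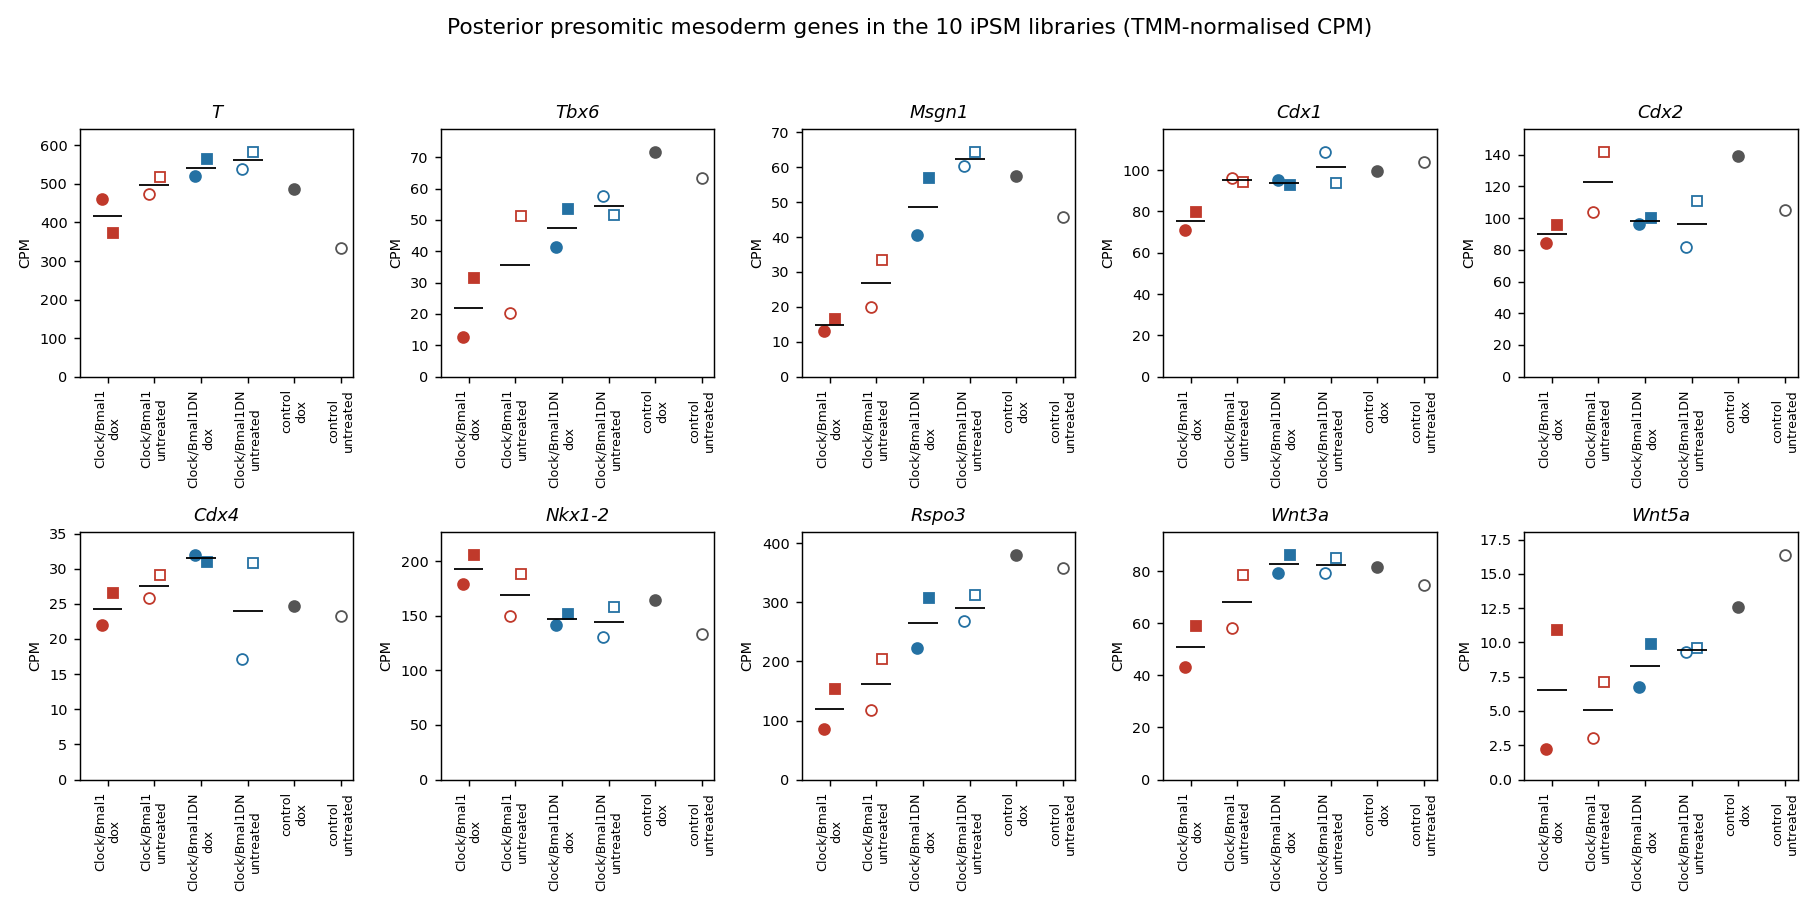
TMM-normalised CPM of each gene in the 10 iPSM libraries, filled with dox and open without. Circles are clones 12 (red) and 7 (blue) and the control line (grey), squares are clones 20 (red) and 19 (blue), and lines are means of 2 clones; Msgn1 and Rspo3 are lower in all 4 Clock/Bmal1 libraries than in the other 6, and Nkx1-2 is highest in dox-treated clone 20, at 206 CPM.

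The comparison of dox with untreated in the Clock/Bmal1 clones asks whether posterior identity genes respond within 2 hours of inducing Clock and Bmal1 in iPSM. No gene of the 10 passed: 0 were called in edgeR and 0 in DESeq2, where 1.02% of 24805 tested genes passed in edgeR (0.996% higher and 0.0282% lower with dox). At an unadjusted p under 0.05 there were 3 of the 10, Msgn1, Cdx1 and Cdx2, all lower with dox, against 5.59% of tested genes, and 1.13% of tested genes in that direction. The median log2 fold change of the 10 genes was -0.36, against -0.02 over all genes. In 8 of the 10 the value was lower with dox in both clones, against 21.5% of tested genes. Nkx1-2 was higher in both (18.0% of tested genes) and Wnt5a differed between clones.

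Among the T-box and bHLH factors, Msgn1 showed the largest difference. It had 13.2 and 16.6 CPM with dox in clones 12 and 20, against 20.0 and 33.5 CPM untreated (-0.82 ± 0.243, unadjusted p = 0.00635 in edgeR, adjusted p = 0.285). The groups did not overlap, and the clones' own log2 differences were -0.60 and -1.01. The Msgn1 difference passed with the clone as a block (-0.78, adjusted p = 0.0326; 1.51% of genes called, 0.0806% as lower). It also passed without untreated clone 12 (-1.14, adjusted p = 0.00978; 2.77% called, 0.396% as lower) and without the low-count filter (-0.82, adjusted p = 0.000451; 1.44% called, 0.099% as lower). In DESeq2 it missed the threshold (adjusted p = 0.0533; 1.52% called, 0.0766% as lower). It also missed it in an edgeR fit of only the 4 libraries compared (adjusted p = 0.727). Nor did Msgn1 pass without untreated clone 20 (-0.40), dox-treated clone 12 (-0.66) or dox-treated clone 20 (-1.01). The control line had 57.4 CPM with dox and 45.8 CPM untreated.

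Tbx6 had 12.7 and 31.3 CPM with dox in clones 12 and 20, against 20.2 and 51.2 CPM untreated (-0.67 ± 0.422, adjusted p = 1.0). The clones differed from each other more than dox differed from untreated, while the differences within the clones were close, -0.66 and -0.71. It passed only without the low-count filter (adjusted p = 0.00889), and with the clone as a block its adjusted p was 0.0766. The Tbx6 values in the control line were 71.8 CPM with dox and 63.4 CPM untreated. T had 462 and 373 CPM with dox, against 475 and 519 CPM untreated (-0.23 ± 0.138, adjusted p = 1.0). Nearly all of that difference was in clone 20, with -0.48 against -0.04 in clone 12.

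The Cdx genes had small differences of the same sign. Cdx1 had 71.2 and 79.7 CPM with dox in clones 12 and 20, against 96.3 and 94.5 CPM untreated (-0.32 ± 0.135, unadjusted p = 0.0387 in edgeR, adjusted p = 0.8). Its dox values in these clones were also below the 92.8 to 109 CPM of the other 8 iPSM libraries. Cdx2 had 84.5 and 95.6 CPM with dox, against 104 and 142 CPM untreated (-0.43 ± 0.185, unadjusted p = 0.0423 in edgeR, adjusted p = 0.835). Both genes had groups that did not overlap, as did T and Msgn1, 4 of 10 in all against 12.7% of tested genes. Cdx4, the Cdx gene most restricted to the tail end, had 22 and 26.6 CPM with dox, against 25.9 and 29.1 CPM untreated (-0.15 ± 0.234).

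Nkx1-2 was the exception with a higher value in both clones, 179 and 206 CPM with dox, against 150 and 188 CPM untreated (0.21 ± 0.157). The groups overlapped, and in the control line it had 164 CPM with dox and 133 CPM untreated. Its paralogue Nkx1-1, a gene of the same NK1 homeobox family, did pass. Nkx1-1 had 152 counts with dox and 0 untreated over clones 12 and 20, at least 52.7-fold higher against a floor of 3 counts over the group, and in CPM 1.16 and 1.95 with dox.

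Of the Wnt pathway ligands, Rspo3 had 85.5 and 153 CPM with dox in clones 12 and 20, against 118 and 205 CPM untreated (-0.41 ± 0.294). Wnt3a had 43.0 and 59.0 CPM with dox, against 58.1 and 78.3 CPM untreated (-0.40 ± 0.185). For both genes the 2 clones gave nearly the same log2 difference, -0.46 and -0.42 for Rspo3 and -0.43 and -0.41 for Wnt3a, around clone levels that overlapped between the groups. Wnt5a had 2.20 and 10.9 CPM with dox, against 3.00 and 7.12 CPM untreated (0.41 ± 0.576), lower in clone 12 and higher in clone 20. None of these 3 had an unadjusted p under 0.05.

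Summed markers of other cell types also varied between these libraries, in most lists with a different sign in the 2 clones. The summed level of 8 neural markers was 48.2 and 104 CPM with dox in clones 12 and 20, against 53.6 and 75.4 CPM untreated. That of 9 pluripotency markers was 450 and 326 CPM with dox, against 449 and 411 CPM untreated. The 8 endoderm markers summed to 47.8 and 37.9 CPM with dox, against 42.0 and 44.2 CPM untreated. The 8 lateral mesoderm markers, lower with dox in both clones, summed to 1.98 and 2.63 CPM with dox, against 2.48 and 2.96 CPM untreated. In this last list Hand2 was at 0 in both dox libraries and Hand1 in both untreated ones. Their part in the differences was not tested. The number of all genes called also depended on single clones, with 678 without untreated clone 12 and 83 without dox-treated clone 20, against 254 with all libraries.

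**Figure D3:**
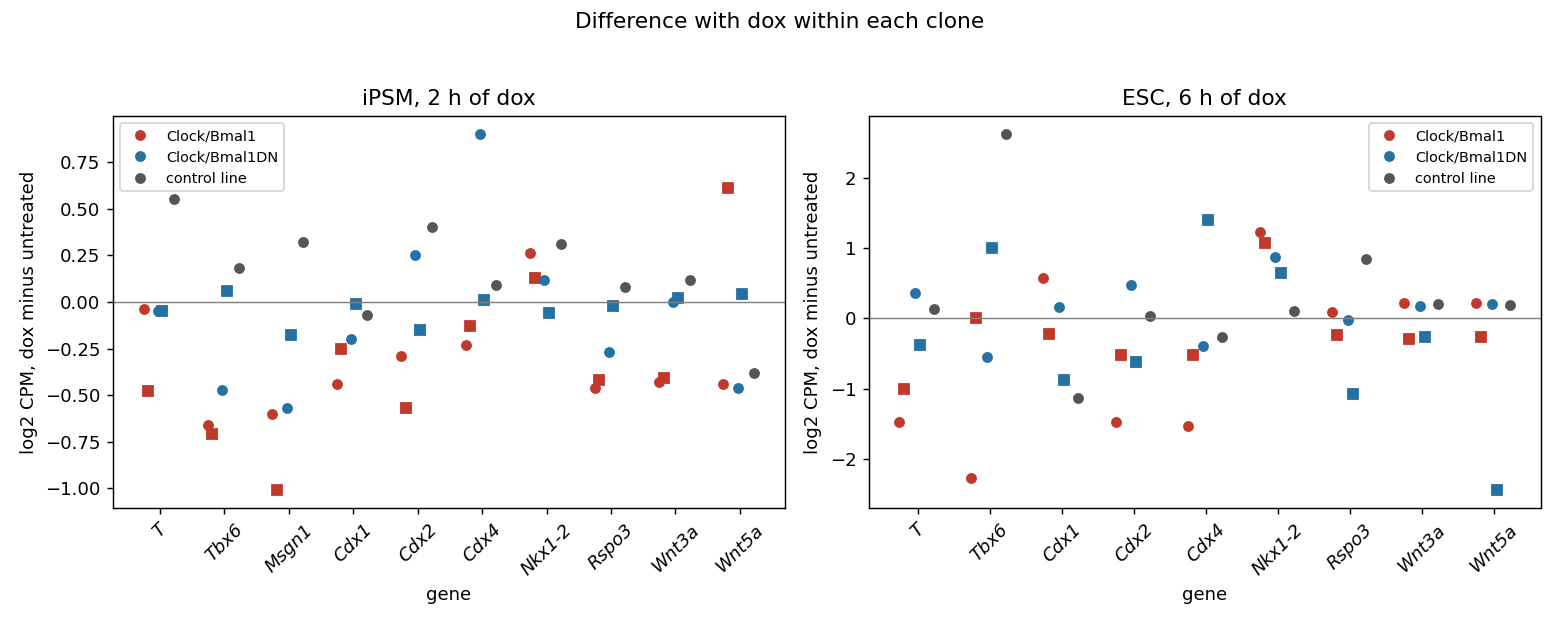
Difference of log2 CPM (prior count 2), dox minus untreated, within each clone in iPSM (left) and ESC (right). Circles are iPSM clones 12 and 7 and ESC clones 1 and 5, squares iPSM clones 20 and 19 and ESC clones 7 and 6, and grey points the control line; in iPSM both Clock/Bmal1 points lie below 0 for 8 genes, down to -1.01 for Msgn1, and Msgn1 is left out of the ESC panel, where it has almost no counts.

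The same comparison with the dominant-negative Bmal1 in iPSM gave 0 of the 10 genes in edgeR and 0 in DESeq2. In edgeR 0.00403% of 24805 tested genes passed. Arntl counts rose less with dox in these clones than in the Clock/Bmal1 clones, in clone 19 only to 143 CPM from 61.9 CPM untreated. Of the 10, 0 had an unadjusted p under 0.05 in edgeR, against 0.641% of tested genes. The median log2 fold change was -0.08, against 0.00 over all genes. Msgn1 had 40.6 and 56.8 CPM with dox in Clock/Bmal1DN clones 7 and 19, against 60.4 and 64.5 CPM untreated (-0.35 ± 0.238, adjusted p = 1.0). Its groups did not overlap, as for 13.0% of tested genes that were lower with dox. T, Cdx1 and Rspo3 were likewise lower in both clones, 4 of 10 genes against 23.7% of tested genes.

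Cdx4 had 32 and 31.0 CPM with dox in Clock/Bmal1DN clones 7 and 19, against 17.1 and 30.8 CPM untreated (0.40 ± 0.234), with groups that did not overlap (12.2% of tested genes, higher with dox) and a difference that rests on untreated clone 7, the lowest iPSM library for this gene. Tbx6 had 41.5 and 53.5 CPM with dox, against 57.5 and 51.5 CPM untreated, lower in clone 7 and higher in clone 19. Wnt3a was at 79.4 and 86.3 CPM with dox, against 79.4 and 85.0 CPM untreated, with next to no difference in either clone.

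The difference between the Clock/Bmal1 and Clock/Bmal1DN responses, which share no library, was tested directly. It passed for 0 of the 10 genes in edgeR (0.278% of 24805 tested) and 0 in DESeq2. At an unadjusted p under 0.05 in edgeR there were 0 of the 10 and 3.45% of tested genes. The difference of log2 fold changes was -0.46 ± 0.34 for Msgn1, -0.47 ± 0.593 for Tbx6, -0.46 ± 0.262 for Cdx2, -0.56 ± 0.331 for Cdx4 and -0.41 ± 0.261 for Wnt3a (adjusted p = 1.0 each). In 8 of the 10 it was negative, with a median of -0.35 against -0.03 over all genes. A response of the posterior genes to Clock/Bmal1 beyond that to Clock/Bmal1DN was not detectable with 2 clones.

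The untreated Clock/Bmal1 and Clock/Bmal1DN iPSM clones were compared as well. T, Tbx6, Msgn1, Rspo3, Wnt3a and Wnt5a had lower values in both untreated Clock/Bmal1 clones than in either untreated Clock/Bmal1DN clone, 6 of 10 against 16.6% of tested genes. With the dox libraries included, T, Msgn1, Rspo3 and Wnt3a were lower in all 4 Clock/Bmal1 libraries than in all 4 Clock/Bmal1DN libraries, 4 of 10 against 5.51%. In edgeR 0 of the 10 passed and 0.0% of 24805 genes did, with 2 of the 10 (Msgn1 and Rspo3) and 4.8% of all genes at an unadjusted p under 0.05. Both were lower in the Clock/Bmal1 clones, as were 2.92% of all genes at that p. In DESeq2 Msgn1 passed as lower, as did 0.0927% of genes (0.101% in either direction).

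Untreated Msgn1 averaged 26.7 ± 9.54 CPM in the Clock/Bmal1 clones and 62.5 ± 2.93 CPM in the Clock/Bmal1DN clones (SD, n = 2 clones each; -1.22 ± 0.242, unadjusted p = 0.000379 and adjusted p = 0.696 in edgeR, adjusted p = 0.0021 in DESeq2). Without untreated Clock/Bmal1 clone 12 the difference was -0.89 and passed in edgeR (adjusted p = 0.0291), in a fit where 1779 genes were called, 7.27% of those tested (4.29% as lower). Rspo3 averaged 162 ± 61.5 CPM in untreated Clock/Bmal1 clones and 291 ± 30.3 CPM in untreated Clock/Bmal1DN clones (-0.84 ± 0.296, unadjusted p = 0.016 and adjusted p = 0.842 in edgeR). Untreated Tbx6 was at -0.60 ± 0.419, Wnt5a at -0.90 ± 0.576, Wnt3a at -0.26 ± 0.184 and T at -0.17 ± 0.138 on the log2 scale. Without the low-count filter, where 0.533% of genes were called (0.41% as lower), Msgn1, Rspo3 and Wnt5a passed.

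The comparison of genotypes and the dox comparison share the untreated Clock/Bmal1 libraries, and their sizes were not tested against each other. The control line lay with or beyond the Clock/Bmal1DN clones for Rspo3 (381 CPM with dox and 359 CPM untreated) and Tbx6, and below them for untreated T (333 CPM). Untreated control Msgn1, at 45.8 CPM, lay between the genotypes. Untreated control Wnt3a, at 74.6 CPM, lay within the range of the untreated Clock/Bmal1 clones (58.1 to 78.3 CPM). Summed neural, endoderm and lateral mesoderm markers did not overlap between the same untreated clones, while pluripotency markers did. The summed level in Clock/Bmal1 and Clock/Bmal1DN clones was 53.6 to 75.4 and 76.1 to 90.4 CPM for neural, 42.0 to 44.2 and 29.6 to 36.2 CPM for endoderm, 2.48 to 2.96 and 3.34 to 3.95 CPM for lateral mesoderm, and 411 to 449 and 390 to 480 CPM for pluripotency markers. Their part in the differences was not tested.

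In ESC, with Clock/Bmal1 induced for 6 hours, 0 of the 9 genes that could be tested passed in edgeR and 0 in DESeq2. In edgeR 0.422% of 22500 genes passed, 0.404% higher and 0.0178% lower. At an unadjusted p under 0.05 in edgeR there were 0 of the 9 and 7.49% of tested genes, and Msgn1 had too few counts. T had 4.46 and 19.8 CPM with dox in clones 1 and 7, against 12.5 and 39.6 CPM untreated (-1.14 ± 0.663, adjusted p = 0.715). The clones differed more than the conditions, while the differences within clones were -1.48 and -1.0, against 0.13 in the control line. T passed without the low-count filter (adjusted p = 0.0201; 1.47% of genes called, 0.178% as lower), and with the clone as a block its adjusted p in edgeR was 0.0871. Cdx2 had 0.953 and 5.98 CPM with dox, against 2.73 and 8.59 CPM untreated, with log2 differences of -1.48 and -0.52.

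Nkx1-2 had 2.36 and 9.81 CPM with dox in ESC clones 1 and 7, against 0.976 and 4.64 CPM untreated (1.08 ± 0.763, adjusted p = 0.744). Its log2 differences of 1.23 and 1.07 were larger than in iPSM, and in the Clock/Bmal1DN clones 5 and 6 it was also higher, at 1.28 and 0.781 CPM with dox, against 0.675 and 0.482 CPM untreated. In the ESC control line it was at 1.04 CPM with dox and 0.962 CPM untreated. Nkx1-2 was the only gene of the 10 with a higher value in both Clock/Bmal1 clones in iPSM and also in ESC, and it passed in neither. Of all tested genes 18.0% in iPSM and 32.6% in ESC were higher in both Clock/Bmal1 clones. In both ESC Clock/Bmal1DN clones 24.2% were higher. Nkx1-1 passed in ESC as well, with 219.5 counts with dox and 2.5 untreated (ratio 122, 95% counting interval 41.8 to 1270), although the ESC control line held 0.325 CPM of it with dox and 0 untreated. Leaving out untreated clone 1 (adjusted p = 0.131), untreated clone 7 (adjusted p = 0.109) or dox-treated clone 1 (adjusted p = 0.0681) ended that call.

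The other ESC levels were low. Tbx6 and Cdx4 were at or under 0.677 CPM in every ESC library, Cdx1 at 0.391 to 2.41 CPM, Wnt3a at 1.09 to 3.29 CPM and Rspo3 at 0.986 to 4.75 CPM. Tbx6, T, Cdx2 and Cdx4 had lower values in both Clock/Bmal1 clones, 4 of 9 against 32.4% of tested genes. For Tbx6 this rests on clone 1, since clone 7 held 0.266 CPM in both states.

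**Figure D4:**
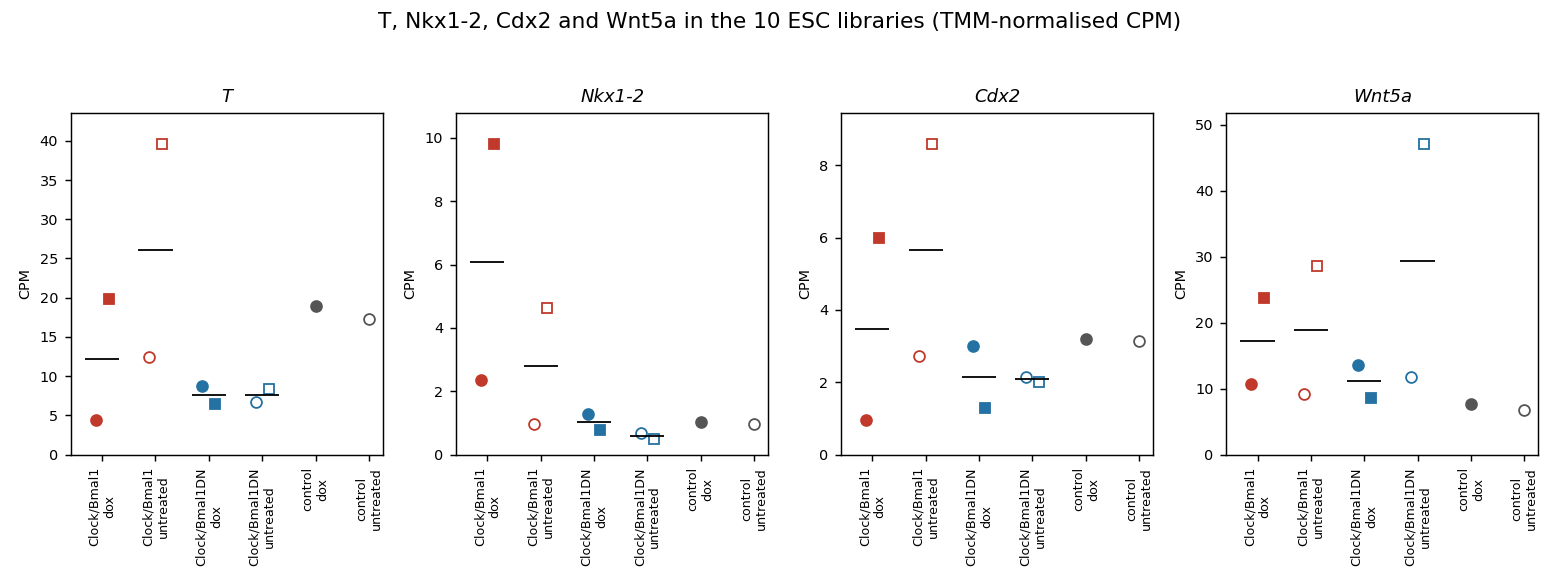
TMM-normalised CPM of T, Nkx1-2, Cdx2 and Wnt5a in the 10 ESC libraries, filled with dox and open without. Circles are clones 1 (red) and 5 (blue) and the control line (grey), squares clones 7 (red) and 6 (blue), and lines are means of 2 clones; Nkx1-2 reaches 9.81 CPM in dox-treated clone 7 and Wnt5a 47.1 CPM in untreated Clock/Bmal1DN clone 6.

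With Clock/Bmal1DN in ESC, 0 of the 9 genes passed in edgeR (0.00444% of 22500 genes), 0 passed in DESeq2 and 0 had an unadjusted p under 0.05 in edgeR (4.0% of tested genes). Wnt5a had 13.6 and 8.59 CPM with dox in clones 5 and 6, against 11.7 and 47.1 CPM untreated (-1.44 ± 0.711, adjusted p = 0.983). That difference came from untreated clone 6, the library with 455 CPM of feeder markers, against 61.9 to 91.5 CPM in the dox-treated clones and 89.7 CPM in untreated clone 5. It passed without the low-count filter (adjusted p = 0.000409; 1.27% of genes called, 1.11% as lower). A difference of the Clock/Bmal1 response between iPSM and ESC was not detectable for any of the 10 with 2 clones per group. In edgeR 0 were called (0.0% of 26689 genes) and 0 had an unadjusted p under 0.05 (4.02% of genes), and DESeq2 called 0. Msgn1, with almost no ESC counts, cannot carry this comparison (2.14 ± 2.03). Dose and duration differed between the cell types too.

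Around the 10 genes, other genes of the tailbud and of the Wnt and segmentation pathways were counted. With dox in iPSM Clock/Bmal1 clones, Sp5, a Wnt-induced zinc-finger factor of the tailbud, fell to 32.8 CPM, against 68.9 CPM untreated (-1.05 ± 0.136, adjusted p = 0.00299). It was the only one of 10 tailbud and neuromesodermal genes to pass in edgeR and in DESeq2 (median -0.46 over the list), and with the clone as a block Cyp26a1 also did. Of 16 segmentation oscillator genes 2 rose and 1 fell. Hes1 rose to 89.9 CPM, against 15.3 CPM untreated (2.58 ± 0.249, adjusted p = 0.000543), and Lfng to 66.5 CPM, against 13.3 CPM (2.35 ± 0.432, adjusted p = 0.0253), both parts of Notch signalling. Dkk1, a secreted Wnt inhibitor and Wnt target, fell to 6.50 CPM, against 16.6 CPM (-1.33 ± 0.256, adjusted p = 0.0327). With the clone as a block 5 of the 16 rose and 2 fell. Without dox-treated clone 20 the Hes1 call was the only one kept of these 4, with adjusted p = 0.0658 for Sp5 (-1.0), 0.282 for Lfng (1.73) and 0.18 for Dkk1 (-1.49). Dkk1 also failed on leaving out dox-treated clone 12 (-1.19, adjusted p = 0.202) or untreated clone 20 (-0.92, adjusted p = 0.0836).

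Of 15 anterior presomitic and somite genes tested, Ripply2, a repressor that ends Tbx6 activity at the forming boundary, rose to 2.37 CPM, against 0.0762 CPM untreated (5.01 ± 0.737, adjusted p = 0.00667), and 14 did not pass. Of 12 Wnt ligand and secretion genes Rspo4, an R-spondin like Rspo3, rose to 2.63 CPM, against 0.342 CPM (2.93 ± 0.549, adjusted p = 0.0277). Of 24 Wnt receptor and signal transduction genes 0 passed in edgeR and 0 in DESeq2, and 5 had an unadjusted p under 0.05. At that p, which 5.59% of all genes reached, were 3 of the 10 tailbud, 1 of the 15 anterior, 11 of the 16 oscillator and 2 of the 12 ligand genes and 5 of the 13 paralogues. Of 13 paralogues of the 10 genes only Nkx1-1 passed. Without dox-treated clone 20 these 3 calls were lost, at 4.0 for Ripply2 (adjusted p = 0.121), 2.60 for Rspo4 (adjusted p = 0.282) and 8.76 for Nkx1-1 (adjusted p = 0.066). With Clock/Bmal1DN 0 genes of these 6 lists passed in either cell type in edgeR or DESeq2. Each list had 0 to 3 genes there at an unadjusted p under 0.05. In the direct difference of the 2 responses in iPSM, Hes1 (2.59 ± 0.341, adjusted p = 0.011) and Nkx1-1 passed in edgeR (0.278% of tested genes). Sp5, Lfng, Dkk1, Ripply2 and Rspo4 did not, although Ripply2 passed in DESeq2. The Hes1 call ended on leaving out dox-treated Clock/Bmal1 clone 20 (2.55), dox-treated Clock/Bmal1DN clone 7 (2.36) or untreated Clock/Bmal1DN clone 19 (2.45). That of Nkx1-1 ended on leaving out dox-treated Clock/Bmal1 clone 20 or any single Clock/Bmal1DN library. Sp5 had 48.7 and 55.2 CPM with dox in Clock/Bmal1DN clones 7 and 19, against 64.4 and 65.9 CPM untreated. In Clock/Bmal1 ESC Lfng passed (2.81 ± 0.242, adjusted p = 0.00298), as did Nkx1-1. Leaving out untreated clone 1 (2.75, adjusted p = 0.0501) or untreated clone 7 (2.86, adjusted p = 0.0513) ended the Lfng call.

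Between untreated iPSM and ESC clones, 5 of the 10 tailbud genes were higher in iPSM and 2 lower, to be read against the 31.3% higher and 28.8% lower of all genes. Fgf8, the tailbud FGF, was at 53.9 CPM in iPSM and 2.42 CPM in ESC (4.89 ± 0.343, adjusted p = 1.84e-08), and Evx1 at 26.5 and 0.791 CPM (5.24 ± 0.359, adjusted p = 1.41e-08). Of the oscillator genes 9 were higher and 1 lower, led by Hes7, the Notch-driven core oscillator (7.4 ± 0.466, adjusted p = 6.11e-09). The anterior and somite genes were divided, with 5 of 15 higher and 6 lower, Aldh1a2 (5.33 ± 0.499) and Tbx18 (-4.75 ± 0.618) among them. Of the Wnt ligands 5 of 12 were higher and 4 lower, with a median log2 fold change of 0.07, against 0.05 over all genes. Wnt8a (5.33 ± 0.288) and Wnt5b (4.19 ± 0.248) were higher in iPSM like Wnt3a, and Wnt5b differed in sign from its paralogue Wnt5a. Of the Wnt receptor and transduction genes 16 of 24 were higher and 3 lower, and of the paralogues 1 of 13 was higher and 9 lower.

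The genes whose profile over the 10 iPSM libraries was nearest to the median profile of the 10 posterior genes were sought among 15207 genes with a mean of at least 1 CPM. That median profile, in log2 units around each gene's own mean, was -0.55 and -0.25 in dox-treated Clock/Bmal1 clones 12 and 20, -0.19 and 0.13 in the same clones untreated, 0.03 to 0.27 in the 4 Clock/Bmal1DN libraries, and 0.31 and 0.12 in the dox-treated and untreated control line. Of the 10 genes, which themselves make up that median, Wnt3a lay nearest to it (root mean square difference 0.0848), then Cdx1 (0.17), and Wnt5a farthest (0.681). By nearness Wnt3a ranked 1 of the 15207 genes, Cdx1 105, Cdx2 2776 and T 3910. Cdx4 ranked 7714, Nkx1-2 10916, Rspo3 12069, Tbx6 13222, Msgn1 13667 and Wnt5a 14475. The median profile thus describes several of the 10 genes poorly. Outside the 10 the nearest were Rab8b (0.0938), a small GTPase of vesicle transport, Pea15a (0.0988), an adaptor protein, Tmem65 (0.103), 2500004C02Rik (0.108) and Adgra3 (0.113), an adhesion G protein-coupled receptor. These likenesses are a description over 10 libraries that share clones.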

How the data were processed

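Stranded total RNA libraries were read as 101-bp paired ends, per the labels' protocols. The submitters' processing notes name bcl2fastq, STAR 2.7.2a, HOMER and mm10. The deposited tables, 1 per cell type, give each transcript an expected count over its gene body (18.1% of counts end in 0.5), made by the authors with no normalisation per the file headers. Beside it stands the authors' RPKM, scaled by gene body length and library total; recomputing it from the counts gave the deposited RPKM for 100% of entries (within 1% plus 0.001).

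Counts were rounded to whole numbers and fitted with edgeR 4.0.16 in R 4.3.3 (TMM, filterByExpr by group, estimateDisp, glmQLFit, glmQLFTest, two-sided). All 10 libraries of a cell type formed 6 groups, and contrasts across cell types used 1 fit of all 20. The threshold was an adjusted p under 0.05 (Benjamini-Hochberg, over all genes tested), and unless another tool is named p-values are edgeR's. SE was taken as the size of a log2 fold change over the root of its F value. CPM used TMM factors over all 20 libraries. The fit was tested on simulated counts. Intervals and floors cover counting error only, since the reads carry no molecular identifiers.

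The same clone was measured with and without dox, so clone pairs the samples. Dox and untreated libraries of a clone deviated together with a correlation of 0.19 and 0.088 (iPSM Clock/Bmal1 and Clock/Bmal1DN) and 0.419 and -0.012 (ESC). The fit with clone as a block, DESeq2 1.42.0, RLE factors, no filter and omission of each library were alternatives. The 10 genes, the gene lists and the alternatives were chosen with earlier results of these data known. The rule for named genes took the 10 always, up to 4 genes per list and contrast by size of the change among those that passed, and the 5 nearest profiles. The promoters of Cdx1, Rspo3 and Wnt5a were not searched, and chr18, where Cdx1 lies, was left out by rule.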

Additional observations from a re-analysis of the deposited data

How the results depend on the processing

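Of 910 alternative values of the 78 tested gene values, 896 stayed on the same side of the threshold, 11 passed only in the alternative and 3 only with the settings reported. No called value changed sign, and 66 values that passed in neither did. The number of the 10 genes called in the Clock/Bmal1 dox comparison in iPSM was 0 as reported, 1 with clone as a replicate block, 2 without the low-count filter and 0 to 1 with a library left out. Untreated Clock/Bmal1 against Clock/Bmal1DN clones in iPSM gave 1 in DESeq2, 3 without the filter and 0 to 1 with a library left out. Without the filter Clock/Bmal1 and Clock/Bmal1DN in ESC gave 1 each. The iPSM against ESC comparison gave 9 to 10. The block changed no other call of the 10 genes. Of all genes, the Clock/Bmal1 comparison in iPSM called 254 as reported, 597 without the filter, 111 in a fit of its 4 libraries and 83 to 678 with a library left out; the other counts called were 69 (154 in DESeq2, 280 without the filter, 132 with the block, 16 to 167 with a library left out) for the difference of responses in iPSM, and in ESC 95 with Clock/Bmal1 (359, 537, 158 and 7 to 90; 25 in a fit of 4 libraries) and 1 with Clock/Bmal1DN (7 in DESeq2, 463 without the filter). Clock/Bmal1DN in iPSM called 1 (8 without the filter), the difference between cell types 0 (15 in DESeq2, 87 without the filter, 2 with the block) and the untreated genotypes 0 (25 in DESeq2, 221 without the filter, up to 1779 with a library left out). Leaving out the untreated iPSM control library, chosen after seeing the data, gave 248 for Clock/Bmal1 in iPSM and 55 for the difference of responses. Where a group is left with 1 clone, that clone is assumed to vary like the others. In ESC depth limits Msgn1, Tbx6 and Cdx4, with 7, 99 and 172 counts over 10 libraries. The causes were not tested.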

Other observations

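Untreated iPSM clones of the same genotype differed in genes beyond the 10. Aldh1a2, the retinoic acid synthase of the anterior presomitic mesoderm and somites, had 20.2 and 74.3 CPM in untreated Clock/Bmal1 clones 12 and 20, against 116 and 91.3 CPM in untreated Clock/Bmal1DN clones 7 and 19, and 172 CPM in the untreated control line. Dll1, the Notch ligand of the presomitic mesoderm and a target of Tbx6 and Wnt signalling, had 47.7 and 148 CPM in untreated Clock/Bmal1 clones 12 and 20, against 143 and 132 CPM in untreated Clock/Bmal1DN clones 7 and 19. With dox, Dll1 had 49.1 and 127 CPM in Clock/Bmal1 clones 12 and 20. For both genes clone 12 was the lowest of the 4 untreated transgene clones, as it was for T, Tbx6, Msgn1, Rspo3, Wnt3a and Wnt5a. These genes were named after their values were seen, and the cause was not tested.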
